A study of Rattus norvegicus with 8 samples.

Results

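Axon guidance ligands and receptors are the secreted and membrane-bound cues that steer growing neurites, together with the proteins on the growth cone that read them. Semaphorins signal through plexins, and secreted class 3 semaphorins use neuropilins as co-receptors. Ephrins bind Eph receptor tyrosine kinases, Slits bind Robo receptors, and netrins act through Dcc and the Unc5 proteins. In cultured cortical and hippocampal neurons these families continue to shape dendrites, spines and synapses after axons have grown out.

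The genes were taken by symbol: names beginning with Sema, Plxna, Plxnb, Plxnc, Plxnd, Epha, Ephb, Efna, Efnb, Robo or Unc5, the 3 Slit genes, and Ntn1, Ntn4, Dcc, Nrp1 and Nrp2. This gave 52 genes with 67 probes, of 26903 genes and unnamed transcript accessions with 30367 probes on the array. Of these genes, 49 were measured well enough to test, of 22459 in all. Epha1, Ntn1 and Unc5cl had only dim probes and were not tested. The symbol rule also took in Unc50, a Golgi trafficking protein, and Unc5cl, a death-domain protein, neither of which is a guidance receptor, so 48 guidance genes were tested.

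Neurons cultured from cortical and hippocampal tissue of Sprague Dawley embryos at embryonic day 18 were treated after 7 days in vitro. CAT-SKL is an engineered form of catalase, which degrades hydrogen peroxide, with a peroxisome-targeting signal, and ADDL are soluble amyloid-beta oligomers. The groups were CAT-SKL alone, ADDL alone, CAT-SKL before ADDL (CAT-SKL+ADDL) and ADDL before CAT-SKL (ADDL+CAT-SKL). Each agent was given at 1 µM for 24 h, and every group was compared with neurons given vehicle. The agent named first was taken to be the one given first. Each group had 2 arrays, which the labels call biological replicates, and the p-values below measure only the spread between arrays of a group. Whether embryos were pooled was not stated.

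Each of the 8 two-colour arrays carried treated RNA in the red dye (Cy5) and vehicle RNA in the green dye (Cy3), so each value is a log2 ratio of treated over vehicle. No array had the dyes swapped, and a gene-specific dye effect cannot be told apart from a treatment effect in any comparison with vehicle. Testing the ratio against 0 also leaves out the spread of vehicle cultures, and the labels do not say whether 1 vehicle pool served all arrays. The 4 comparisons with vehicle may therefore share a control. Single treatments and sequential treatments lay in different rows of the slide, so row and duration cannot be told apart from sequence. The number of arrays limits precision. In bulk RNA, fewer cells of a type and less RNA per cell cannot be told apart.

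The 2 CAT-SKL+ADDL arrays differed by no more than the noise between duplicate spots (ratio of the spreads 1.01, against 1.32 to 2.28 in the other 27 pairs of arrays). They were counted as 1 sample, which left 7 samples in the fit. The errors and p-values of that treatment therefore come from the spread within the other 3 groups. All 14 neuronal marker genes were well above background in both channels of every array. So were all 13 astrocyte markers. Of 14 microglial markers, 11 were well above background on all arrays in each channel. Of 13 endothelial, mural and meningeal markers, 7 were so in the treated channel and 8 in the vehicle channel. The microglial marker Itgam and the endothelial marker Tek were above background in no channel.

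The probe used was well above background in both channels of all 8 arrays for 43 of the 49 tested genes. Plxnb3 was above background in 7 treated channels and in 0 vehicle channels, Ntn4 in 6 treated and 2 vehicle channels, Nrp2 in 6 of each and Efna5 in 1 of each. In a group where a dim gene was above background in no array of 1 channel, only a bound can be given, the brighter channel against the dim probe's own signal or the lowest signal above background, whichever was higher. The probe's own signal was the higher in all these cases, and no bound could be given for Efna5. Each bound compares mean signals over the arrays of a group, with no allowance for error, and single arrays can fall below it. On the ADDL arrays the log2 ratio of Plxnb3 was 0.16 and -0.02. Plxnb3, a plexin that binds Sema5a, was at least 1.05-fold, 1.05-fold, 1.17-fold and 1.03-fold brighter than vehicle after CAT-SKL, ADDL, CAT-SKL+ADDL and ADDL+CAT-SKL. None of these 4 comparisons passed the test (limma, adjusted p between 0.402 and 0.798).

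The test called 6 guidance genes lower than vehicle after CAT-SKL and 0 higher. Of the 49 tested, 12.2% passed the threshold (limma, Benjamini-Hochberg adjusted p under 0.05), against 2.62% of all 22459 genes, and by direction 12.2% against 1.78% for lower genes and 0% against 0.837% for higher ones. The genes were 4 semaphorins (Sema3a, Sema3b, Sema5a and Sema6c), the semaphorin receptor Plxna2 and the ephrin-A receptor Epha3. The Slit receptor Robo1 was the 1 member called after ADDL+CAT-SKL, lower than vehicle (2.04% of members against 0.454% of all genes). ADDL and CAT-SKL+ADDL moved no member past the threshold, and 0% of all genes passed in either comparison. For CAT-SKL+ADDL this count depends on its arrays being 1 sample. As separate samples, 15 members passed in that treatment, 11 lower and 4 higher, against 10.3% of all genes. On the log ratios the authors deposited, which use another background correction and dye normalisation, all 7 calls kept their direction and lost the threshold (limma adjusted p between 0.185 and 0.320), and 0% of all genes passed. The changes there were -0.73 for Epha3, -0.70 for Sema3a, -0.53 for Sema5a, -0.48 for Plxna2, -0.35 for Sema3b, -0.32 for Sema6c and -0.52 for Robo1. Median centring in place of loess gave 8 calls after CAT-SKL, 6 lower and 2 higher (Robo2 and Unc50), where 8.09% of all genes passed, against 2.62% with loess. Sema3b and Sema6c, called with loess, were not among those 6.

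At an unadjusted p under 0.05 (limma), 14 members were lower and 4 higher after CAT-SKL (28.6% and 8.16%, against 11.6% and 9.61% of all genes, 21.2% in either direction). After ADDL 13 were lower and 5 higher (26.5% and 10.2%, against 9.18% and 9.83%, 19% in either direction). After CAT-SKL+ADDL 11 were lower and 4 higher (22.4% and 8.16%, against 6% and 5.33%, 11.3% in either direction). After ADDL+CAT-SKL 9 were lower and 5 higher (18.4% and 10.2%, against 9.53% and 8.07%, 17.6% in either direction). In each treatment the members' share of lower genes was above that of all genes, and their share of higher genes was nearer to it.

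Promoter sequences are shown for the 4 of these 7 genes that have an entry in RefSeq's promoter table, since Sema3a, Sema3b and Sema5a have none there. Each window runs 250 bases before to 50 bases after the gene's start on build GRCr8, 5′ to 3′ on the gene's strand. Capitals mark GC boxes (GGGCGG on either strand). The windows are chr13:108691280-108691579 (plus strand) for Plxna2, chr2:185426236-185426535 (plus) for Sema6c, chr11:14920376-14920675 (minus) for Epha3 and chr11:24067706-24068005 (plus) for Robo1.
Plxna2: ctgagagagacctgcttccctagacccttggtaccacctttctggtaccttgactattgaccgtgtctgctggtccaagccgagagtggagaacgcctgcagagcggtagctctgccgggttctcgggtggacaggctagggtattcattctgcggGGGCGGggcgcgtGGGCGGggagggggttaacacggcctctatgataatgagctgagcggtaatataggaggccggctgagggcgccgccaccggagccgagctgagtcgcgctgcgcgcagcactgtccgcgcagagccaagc
Sema6c: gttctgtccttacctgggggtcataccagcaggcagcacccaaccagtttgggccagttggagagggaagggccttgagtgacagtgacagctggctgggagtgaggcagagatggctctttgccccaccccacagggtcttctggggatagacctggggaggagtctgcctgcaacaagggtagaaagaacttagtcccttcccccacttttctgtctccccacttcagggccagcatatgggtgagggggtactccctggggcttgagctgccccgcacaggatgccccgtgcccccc
Epha3: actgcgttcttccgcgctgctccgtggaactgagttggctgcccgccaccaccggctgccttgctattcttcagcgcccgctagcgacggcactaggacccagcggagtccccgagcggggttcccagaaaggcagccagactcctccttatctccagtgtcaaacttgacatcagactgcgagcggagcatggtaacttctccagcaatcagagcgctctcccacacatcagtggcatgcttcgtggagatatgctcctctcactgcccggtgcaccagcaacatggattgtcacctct
Robo1: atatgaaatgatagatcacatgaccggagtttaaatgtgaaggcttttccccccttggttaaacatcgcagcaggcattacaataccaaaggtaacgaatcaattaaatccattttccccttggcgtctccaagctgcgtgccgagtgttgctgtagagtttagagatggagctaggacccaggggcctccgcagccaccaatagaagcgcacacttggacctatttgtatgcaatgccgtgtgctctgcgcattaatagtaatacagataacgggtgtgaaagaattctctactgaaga

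The Plxna2 window held 2 GC boxes, and those of Sema6c, Epha3 and Robo1 held none. GC content was 63.3%, 61.0%, 59.3% and 45.7% in the windows of Plxna2, Sema6c, Epha3 and Robo1, and CpG dinucleotides numbered 24, 2, 18 and 11. Of the 52 members, 41 had a promoter entry, and their median GC content was 60.3%, against 51.7% for all 33469 promoters in the table. A GC box lay in 22 of the 41 (53.7%, against 33.1% of all promoters). The antioxidant response element TGACNNNGC, searched on both strands, lay in 2 (4.88% against 12.1%), Sema3e and Sema7a. The cAMP response element TGACGTCA lay in 1 (2.44% against 1.83%), Epha2. The E-box CACGTG lay in 3 (7.32% against 6.42%), Efna5, Sema3e and Sema4b. The AP-1 motif TGANTCA and the TATA box TATAAA lay in 0 of 41, against 7.33% and 14.2% of all promoters. These are matches of letters only.

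**Figure D1:**
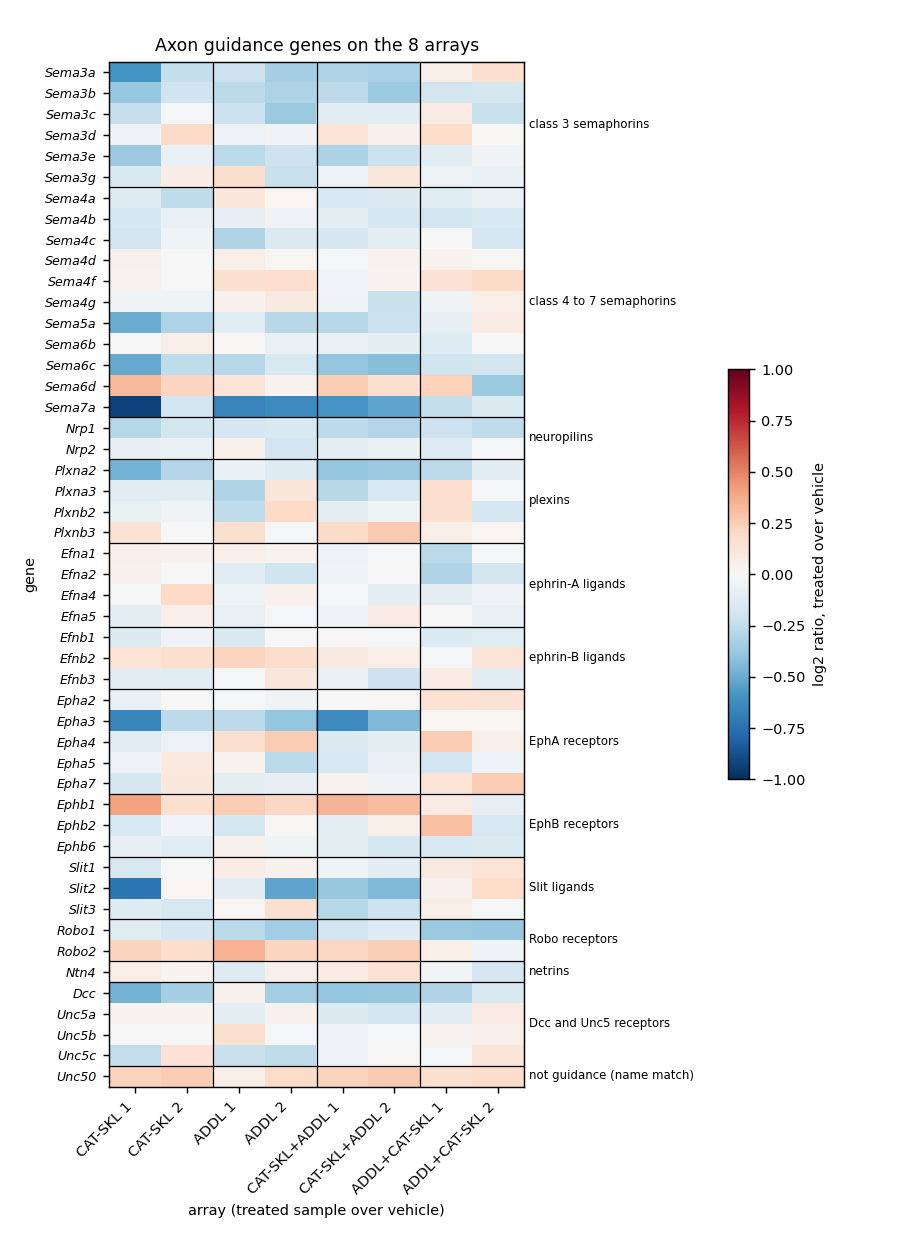
Log2 ratio of treated over vehicle (colour, from -1 to 1) for the 49 tested genes (rows, grouped by family) on each of the 8 arrays (columns, in pairs by treatment). Blue cells, lower than vehicle, gather at Sema7a, Epha3, Slit2, Sema6c, Plxna2 and Dcc, while Ephb1 and Robo2 are red in the first 6 columns and near 0 in the ADDL+CAT-SKL columns.

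Class 3 semaphorins are secreted cues, and Sema3a is the classical repellent of cortical axons. Sema3a measured -0.60 and -0.24 after CAT-SKL, -0.20 and -0.33 after ADDL, -0.31 and -0.32 after CAT-SKL+ADDL, and 0.07 and 0.16 after ADDL+CAT-SKL (log2 ratio to vehicle on each array). It was below vehicle on every array of the first 3 groups and above it on both arrays of the fourth. Its fall after CAT-SKL was -0.42 ± 0.09 (SE, n = 2, limma adjusted p = 0.0480), a 1.34-fold lower level on this scale, against -0.70 on the deposited log ratios. Sema3b, another secreted repellent, was low everywhere, at -0.38 and -0.20, -0.26 and -0.31, -0.26 and -0.37, and -0.18 and -0.16 over the same groups. It passed the test after CAT-SKL (-0.29 ± 0.06, SE, n = 2; limma adjusted p = 0.0498) and not after ADDL (-0.29 ± 0.06; limma adjusted p = 0.0768). The unadjusted p-values of these comparisons were 0.0013 and 0.0014.

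Of the other 4 class 3 members, Sema3e was below vehicle on all 8 arrays (-0.37 to -0.03) and passed no test. Sema3c, which can attract cortical axons, measured -0.29 ± 0.09 after ADDL (SE, n = 2; limma adjusted p = 0.137). Sema3d and Sema3g had values on both sides of 0. The median of the 6 class 3 members was -0.17 after CAT-SKL, -0.25 after ADDL, -0.19 after CAT-SKL+ADDL and -0.06 after ADDL+CAT-SKL. The CAT-SKL arrays differed widely, with medians of -0.30 and -0.04, while the ADDL arrays had -0.21 and -0.27. The median of all genes tested lay within 0.01 of 0 in each comparison, at -0.0014, -0.00016, -0.0039 and -0.0033.

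The membrane-anchored semaphorins held 2 of the called genes and the member furthest below vehicle. Sema5a, which can attract or repel axons, measured -0.50 and -0.31 after CAT-SKL and -0.08 and 0.08 after ADDL+CAT-SKL. Its fall after CAT-SKL was -0.40 ± 0.07 (SE, n = 2; limma adjusted p = 0.0401). On the probe used, Sema6c, a transmembrane semaphorin, was low on all arrays. It measured -0.50 and -0.26 after CAT-SKL, -0.29 and -0.16 after ADDL, -0.39 and -0.43 after CAT-SKL+ADDL, and -0.20 and -0.18 after ADDL+CAT-SKL. Its fall after CAT-SKL was -0.38 ± 0.07 (SE, n = 2; limma adjusted p = 0.0422).

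For both of these genes a second probe gave another answer. The dimmer Sema5a probe measured 0.16 after CAT-SKL, opposite in sign to the brighter one, and the dimmer Sema6c probe measured 0.01. After CAT-SKL+ADDL the brighter and dimmer probes averaged -0.25 and 0.16 for Sema5a, and -0.41 and -0.11 for Sema6c. With the probes of a gene averaged, Sema5a came to -0.12 (limma adjusted p = 0.296) and Sema6c to -0.18 (limma adjusted p = 0.134), and both calls were lost. Sema6c also lost its call with median centring of the arrays instead of loess (-0.15; limma adjusted p = 0.401). Sema3b lost its call under that centring too (-0.24; limma adjusted p = 0.127).

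Sema7a, a lipid-anchored semaphorin that promotes axon growth, lay furthest below vehicle among the members in each of the first 3 groups. It measured -0.93 and -0.19 after CAT-SKL, -0.67 and -0.64 after ADDL, -0.59 and -0.53 after CAT-SKL+ADDL, and -0.24 and -0.13 after ADDL+CAT-SKL. The ADDL arrays were close together, while the CAT-SKL arrays lay far apart. The difference after ADDL was -0.65 ± 0.14 (SE, n = 2, limma adjusted p = 0.0781), a 1.57-fold lower level on this scale that did not pass the threshold. Of the remaining membrane-anchored members, Sema6d was above vehicle on both CAT-SKL arrays (0.33 and 0.21), but its dimmer probe measured -0.09. Sema4f was above vehicle on both arrays after ADDL (0.16 and 0.17) and after ADDL+CAT-SKL (0.15 and 0.19), and it passed no test.

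Plexins and neuropilins carry the semaphorin signal into the cell. Plxna2, which pairs with neuropilins and also binds class 6 semaphorins directly, measured -0.48 and -0.29 after CAT-SKL, -0.07 and -0.13 after ADDL, -0.39 and -0.37 after CAT-SKL+ADDL, and -0.26 and -0.11 after ADDL+CAT-SKL. The values of both groups that received CAT-SKL first lay below those of ADDL alone, without overlap. Its fall after CAT-SKL was -0.38 ± 0.07 (SE, n = 2; limma adjusted p = 0.0381), the smallest p of any member in that comparison. Nrp1, the co-receptor for Sema3a, varied little between arrays. It measured -0.29 and -0.19 after CAT-SKL, -0.17 and -0.15 after ADDL, -0.26 and -0.29 after CAT-SKL+ADDL, and -0.20 and -0.26 after ADDL+CAT-SKL. None of these passed the test (limma adjusted p = 0.0594, 0.166, 0.241 and 0.0955). Plxna3 and Plxnb2 had values on both sides of 0. Nrp2 was at least 1.05-fold lower than vehicle after ADDL+CAT-SKL, where neither treated channel and only 1 vehicle channel was well above background. Its values on these arrays were -0.13 and -0.02, and it did not pass the test.

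**Figure D2:**
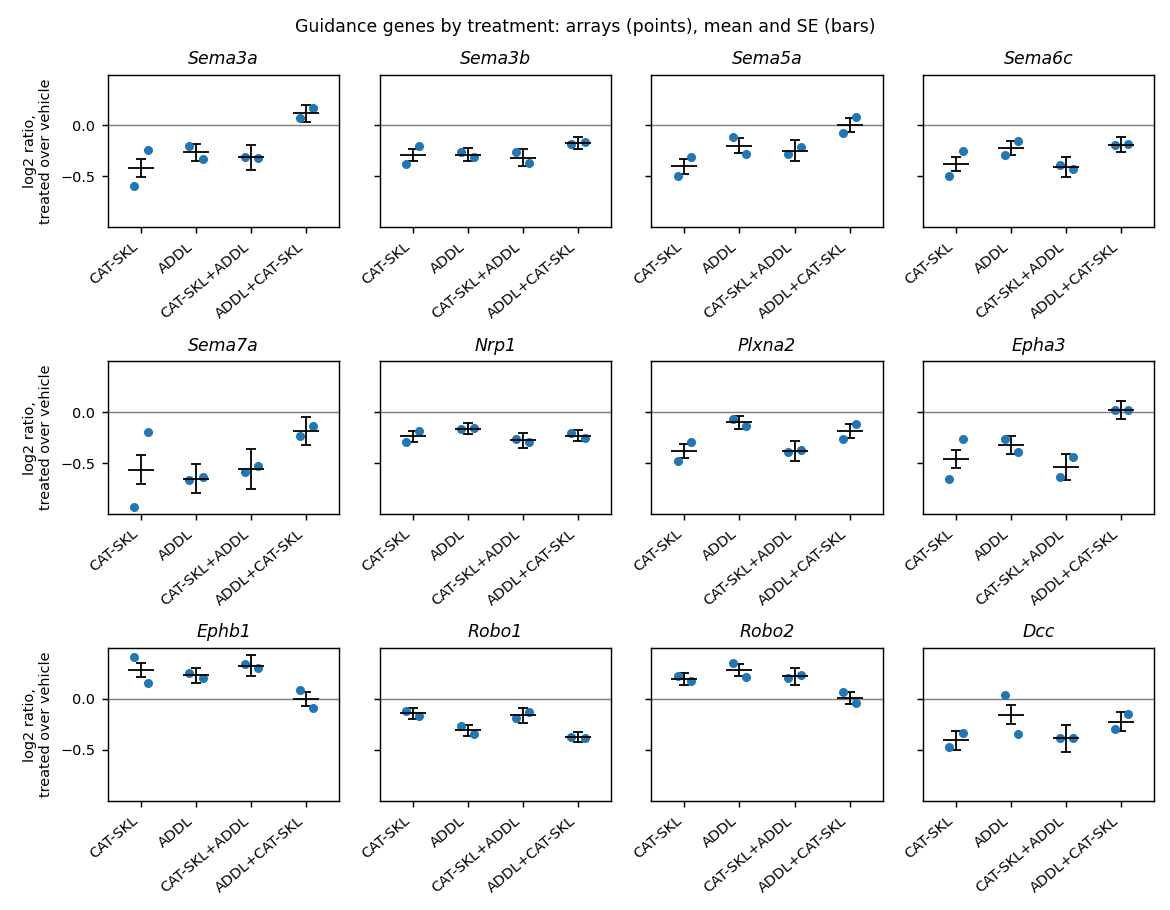
Log2 ratio of treated over vehicle for 12 guidance genes, 1 panel each, with points for the 2 arrays of each treatment and bars for the mean and its standard error from the fit. On the probes used, Sema3a, Sema5a and Epha3 lie below 0 in the first 3 groups and near or above 0 after ADDL+CAT-SKL. Robo1 is lowest after ADDL+CAT-SKL, at -0.37 and -0.38.

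Eph receptors and ephrins signal at contacts between cells, in both directions. Epha3, a receptor for ephrin-A ligands, measured -0.66 and -0.26 after CAT-SKL, -0.26 and -0.39 after ADDL, -0.64 and -0.44 after CAT-SKL+ADDL, and 0.02 and 0.02 after ADDL+CAT-SKL. The first 3 groups were all below vehicle, and the fourth was level with it. Its fall after CAT-SKL was -0.46 ± 0.09 (SE, n = 2, limma adjusted p = 0.0441), a 1.38-fold lower level on this scale, against -0.73 on the deposited log ratios. After CAT-SKL+ADDL it was -0.54 ± 0.13 (limma adjusted p = 0.205).

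Epha4, a receptor for ephrins of both classes, was above vehicle on both arrays after ADDL (0.16 and 0.26) and after ADDL+CAT-SKL (0.25 and 0.05), and below it after CAT-SKL (-0.11 and -0.06) and CAT-SKL+ADDL (-0.14 and -0.09). None of these passed the test (limma adjusted p between 0.143 and 0.735). Its dimmer probe had the opposite sign after CAT-SKL (0.09), CAT-SKL+ADDL (0.08) and ADDL+CAT-SKL (-0.11), and averaged 0.01 after ADDL. Ephb1, a receptor for ephrin-B ligands, was the member furthest above vehicle after CAT-SKL (0.41 and 0.16) and CAT-SKL+ADDL (0.34 and 0.31). It also measured 0.25 and 0.21 after ADDL, against 0.08 and -0.09 after ADDL+CAT-SKL. None passed the test (limma adjusted p = 0.0788 after CAT-SKL). The dimmer Ephb1 probe averaged 0.05 after CAT-SKL, 0.11 after ADDL, -0.04 after CAT-SKL+ADDL and -0.05 after ADDL+CAT-SKL. Epha2 and Epha7 were above vehicle on both arrays after ADDL+CAT-SKL, Epha2 at 0.15 and 0.15 and Epha7 at 0.14 and 0.26, with no call. Epha5, Ephb2 and Ephb6 had no call in any treatment.

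The log2 changes of the 7 ephrin ligands spanned -0.11 to 0.15 after CAT-SKL, -0.15 to 0.19 after ADDL, -0.14 to 0.07 after CAT-SKL+ADDL and -0.24 to 0.06 after ADDL+CAT-SKL. Over the same groups the 8 Eph receptors spanned -0.46 to 0.28, -0.33 to 0.23, -0.54 to 0.32 and -0.15 to 0.20. Efnb2, a ligand of EphB receptors, was the highest ephrin after ADDL (0.21 and 0.17), and Efna2 was the lowest after ADDL+CAT-SKL (-0.30 and -0.19; limma adjusted p = 0.0946). No ephrin passed the test in any treatment.

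On the probes used, the Slit receptors Robo1 and Robo2 lay on opposite sides of vehicle after CAT-SKL, ADDL and CAT-SKL+ADDL. Robo1 measured -0.12 and -0.17 after CAT-SKL, -0.27 and -0.35 after ADDL, -0.19 and -0.13 after CAT-SKL+ADDL, and -0.37 and -0.38 after ADDL+CAT-SKL. It was lower on all arrays, and the groups that began with ADDL lay below the groups that began with CAT-SKL, a difference that passed the threshold in none of the comparisons between treatments. After ADDL+CAT-SKL the fall was -0.37 ± 0.05 (SE, n = 2; limma adjusted p = 0.0446), and after ADDL it was -0.31 ± 0.05 (limma adjusted p = 0.0714). Robo2 measured 0.22 and 0.17 after CAT-SKL, 0.35 and 0.22 after ADDL, 0.21 and 0.24 after CAT-SKL+ADDL, and 0.06 and -0.04 after ADDL+CAT-SKL. It was above vehicle on the 6 arrays of the first 3 groups, with no call (limma adjusted p = 0.0768 after ADDL). The dimmer Robo2 probe averaged 0.10 after CAT-SKL, -0.05 after ADDL, -0.08 after CAT-SKL+ADDL and -0.07 after ADDL+CAT-SKL.

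Among the secreted Slit ligands, Slit2 had the widest spread between arrays of 1 group. It measured -0.73 and 0.02 after CAT-SKL, -0.10 and -0.53 after ADDL, -0.38 and -0.44 after CAT-SKL+ADDL, and 0.05 and 0.19 after ADDL+CAT-SKL. Its dimmer probe measured 0.08 after CAT-SKL+ADDL, where the brighter one averaged -0.41. Slit3 measured -0.28 and -0.21 after CAT-SKL+ADDL (limma adjusted p = 0.298). Slit1 passed no test.

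Dcc, the attractive netrin receptor, measured -0.47 and -0.34 after CAT-SKL, 0.04 and -0.35 after ADDL, -0.39 and -0.38 after CAT-SKL+ADDL, and -0.30 and -0.15 after ADDL+CAT-SKL. It was below vehicle on 7 arrays, and after CAT-SKL it just missed the threshold (-0.41 ± 0.09, SE, n = 2; limma adjusted p = 0.0585). The repulsive netrin receptors Unc5a, Unc5b and Unc5c passed no test, and Unc5c was below vehicle on both ADDL arrays (-0.22 and -0.26), where its dimmer probe averaged 0.02. Ntn4, a laminin-related netrin, was at least 1.03-fold brighter than vehicle after CAT-SKL and at least 1.08-fold after CAT-SKL+ADDL. Its probe had 1 spot per array and measured 0.06 and 0.03, and 0.09 and 0.15, on these arrays. Neither comparison passed the test. Unc50, the trafficking gene taken in by its name, was above vehicle on all arrays (0.06 to 0.26) and passed no test.

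**Figure D3:**
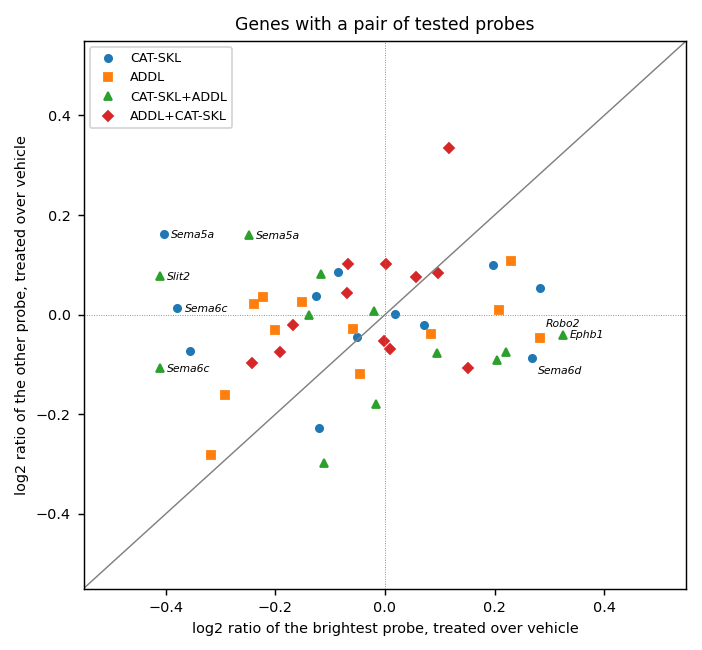
Log2 ratio of the dimmer probe (vertical axis) against that of the brighter, used probe (horizontal axis), treated over vehicle, for the 12 genes with 2 tested probes in the 4 treatments. Named points differ by over 0.3 between the probes, in 6 genes, and Sema5a after CAT-SKL is the farthest, at 0.16 against -0.40.

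Taking each gene's sign on the 2 arrays of a group, 27 members were below and 11 above vehicle on both CAT-SKL arrays (55.1% and 22.4%, against 34% and 32.4% of all genes). The counts were 20 below and 13 above after ADDL (40.8% and 26.5%, against 31.6% and 32.1%). After CAT-SKL+ADDL 32 were below and 8 above (65.3% and 16.3%, against 38.8% and 36.2%), on arrays that count as 1 sample. After ADDL+CAT-SKL 21 were below and 13 above (42.9% and 26.5%, against 31.6% and 30.1%). The members' median log2 change was -0.08, -0.04, -0.08 and -0.02 over the 4 groups. Without the first CAT-SKL array the CAT-SKL median was -0.01, and without the second it was -0.11.

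The calls after CAT-SKL depended on several arrays, of their own group and of others. The first CAT-SKL array measured lower than the second for all 6 called genes. Without that array 0 members and 0.00891% of all genes passed, with adjusted p between 0.436 and 0.531 for the 6 (limma, the lone array taken to vary like the other groups), and without the second 4 members (Epha3, Sema3a, Sema6c and Sema7a) and 1.72% of all genes passed. The count was also 0 without either ADDL array, where these 6 had adjusted p between 0.0560 and 0.0734 and 0.236% of all genes passed. It was 0 without either ADDL+CAT-SKL array, where the 6 had 0.0546 to 0.0774 and 1.03% of all genes passed. The Robo1 call after ADDL+CAT-SKL was lost without any 1 of the CAT-SKL, ADDL or ADDL+CAT-SKL arrays (adjusted p between 0.0655 and 0.306).

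Markers of some other cells also differed between the CAT-SKL arrays. The median log2 ratio of 13 astrocyte markers was 0.75 and 0.14 on the CAT-SKL arrays, 0.32 and 0.78 on the ADDL arrays, 0.58 and 0.52 after CAT-SKL+ADDL, and 0.24 and -0.01 after ADDL+CAT-SKL. For 12 oligodendrocyte-lineage markers it was 0.56 and 0.05, 0.21 and 0.16, 0.56 and 0.55, and 0.05 and -0.0049. For 14 neuronal markers it was -0.12 and 0.04, 0.06 and -0.02, -0.08 and -0.09, and 0.01 and -0.0032. On the CAT-SKL arrays alone it was 0.40 and 0.17 for inhibitory-neuron markers and 0.36 and 0.14 for proliferation markers. There it was 0.14 and -0.02 for microglial markers, and 0.03 and -0.02 for endothelial, mural and meningeal markers. In the comparison that called 6 guidance genes, 0.837% of all genes passed the threshold as higher. So did 0 of 13 astrocyte, 3 of 12 oligodendrocyte-lineage, 1 of 12 microglial, 1 of 12 proliferation and 4 of 10 inhibitory-neuron markers. The astrocyte markers of smallest p, Ndrg2 at 1.05 and S100b at 1.06, narrowly missed it (limma adjusted p = 0.0514 and 0.0529). Among the same markers, Slc1a2 measured 0.07 and -0.10 and Gjb6 -0.05 and -0.01 on the CAT-SKL arrays. No endothelial, mural or meningeal marker passed (smallest limma adjusted p = 0.0617, Cspg4). Of 14 neuronal markers, 0 passed in either direction. The part of these markers in the guidance genes' values was not tested.

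**Figure D4:**
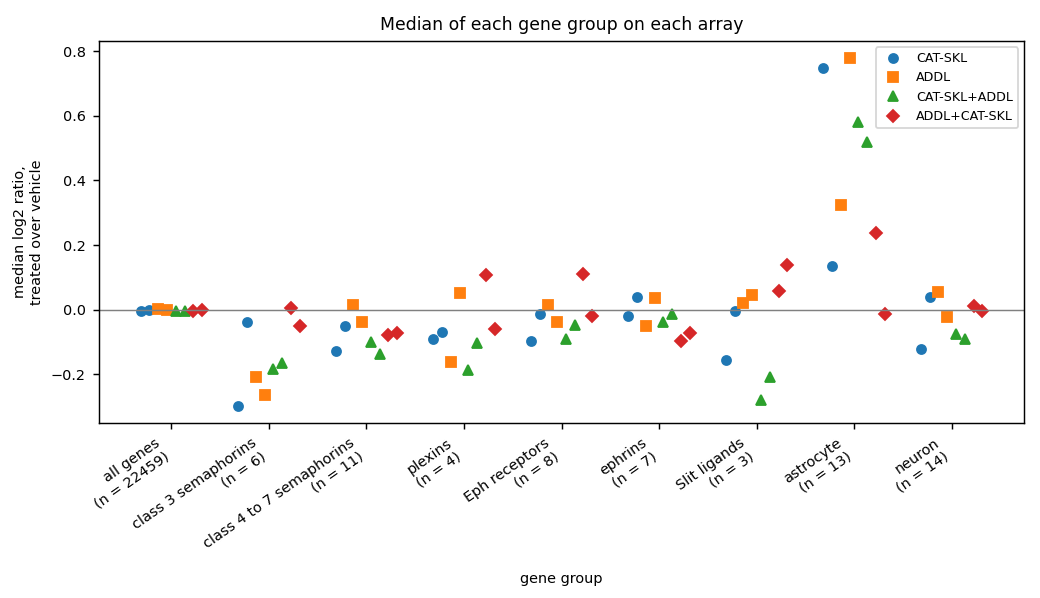
Median log2 ratio of treated over vehicle on each array for all genes, 6 guidance groups, and astrocyte and neuronal markers (n is the number of tested genes). Medians of all genes sit at 0, class 3 semaphorins reach -0.30 on the first CAT-SKL array, and astrocyte markers spread from -0.01 to 0.78.

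Comparing treatments with one another cancels the dye effect, and 0 members and 0% of all genes passed the threshold in any of the 4 comparisons made (limma). At an unadjusted p under 0.05, 7 members differed between ADDL+CAT-SKL and ADDL (14.3%, against 8.39% of all genes), 6 of them higher (12.2% against 3.73%) and 1 lower (2.04% against 4.67%). The difference was -0.27 for Robo2 (95% interval -0.47 to -0.08, limma adjusted p = 0.573), whose dimmer probe averaged -0.07 after ADDL+CAT-SKL and -0.05 after ADDL. The higher genes were Sema3a at 0.38 (0.10 to 0.66), Epha3 at 0.34 (0.06 to 0.63), Sema7a at 0.47 (0.01 to 0.92), and Epha2, Epha7 and Unc5c. The dimmer Unc5c probe averaged 0.08 after ADDL+CAT-SKL and 0.02 after ADDL. The arrays of the groups did not overlap for 12 members that were higher and 9 that were lower (24.5% and 18.4%, against 19.1% and 20.6% of all genes).

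CAT-SKL+ADDL differed from ADDL at an unadjusted p under 0.05 in 3 members, all lower (6.12%, against 3.9% of all genes, 2.46% lower and 1.45% higher). These were Slit3 (-0.34, 95% interval -0.56 to -0.11), Epha4 (-0.33, -0.58 to -0.07) and Plxna2 (-0.28, -0.54 to -0.02), each with a limma adjusted p of 1.00. The dimmer Epha4 probe averaged 0.08 after CAT-SKL+ADDL and 0.01 after ADDL. The arrays did not overlap for 13 members that were higher and 18 that were lower (26.5% and 36.7%, against 22.4% and 24.9% of all genes). CAT-SKL differed from ADDL in 4 members, all lower: Epha4, Sema4a, Plxna2 and Slit3 (8.16%, against 8.7% of all genes, 5.24% lower and 3.46% higher). On the dimmer probe Epha4 was not lower, averaging 0.09 after CAT-SKL and 0.01 after ADDL. The arrays did not overlap for 4 members that were higher and 12 that were lower after CAT-SKL (8.16% and 24.5%, against 18.3% and 22% of all genes). Since both comparisons use the ADDL arrays, their overlap is not read further.

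Between the sequences, ADDL+CAT-SKL and CAT-SKL+ADDL differed in 6 members at an unadjusted p under 0.05 (12.2%, against 5.64% of all genes). Epha3 was higher after ADDL+CAT-SKL by 0.56 (95% interval 0.20 to 0.91, limma adjusted p = 0.857), with values of 0.02 and 0.02 there, against -0.64 and -0.44 after CAT-SKL+ADDL. Sema3a was higher by 0.43 (0.09 to 0.77) and the difference for Ephb1 was -0.33 (-0.62 to -0.03), whose dimmer probe averaged -0.05 after ADDL+CAT-SKL and -0.04 after CAT-SKL+ADDL. Epha4 and Slit3 were higher and Robo1 lower. The dimmer Epha4 probe went the other way, averaging -0.11 after ADDL+CAT-SKL and 0.08 after CAT-SKL+ADDL. For 21 members both ADDL+CAT-SKL arrays lay above both CAT-SKL+ADDL arrays, and for 9 below (42.9% and 18.4%, against 24.8% and 24.5% of all genes), the CAT-SKL+ADDL arrays being 1 sample in the fit.

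**Figure D5:**
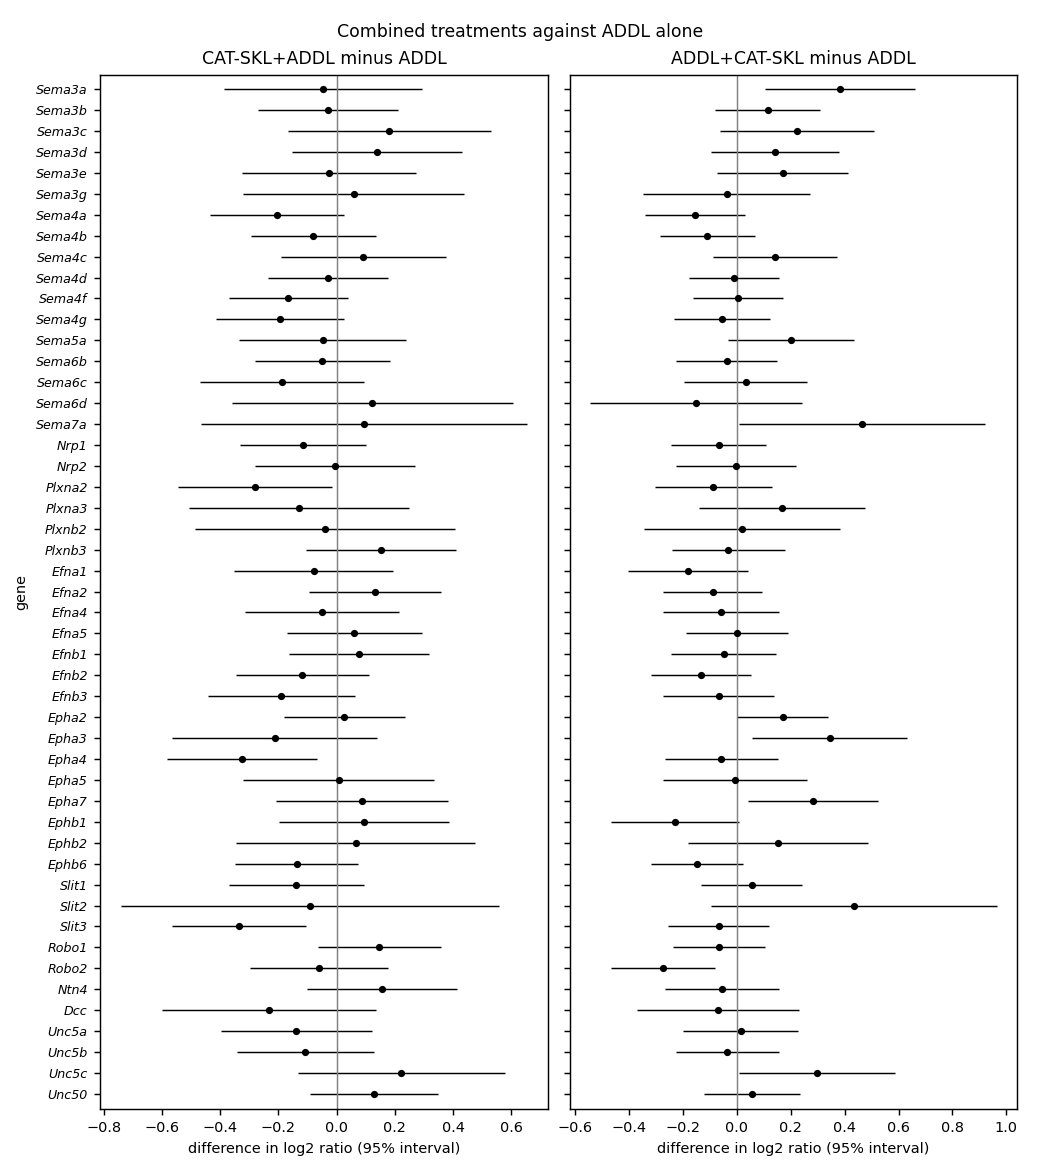
Difference in log2 ratio for each of the 49 tested genes, CAT-SKL+ADDL minus ADDL (left) and ADDL+CAT-SKL minus ADDL (right), with points for the estimate and lines for its 95% interval. Most intervals cross 0, and those that do not include Slit3 (-0.34) on the left and Robo2 (-0.27) and Sema3a (0.38) on the right.

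Proteins that act inside the growth cone were looked at as a list of 51 effectors of guidance receptors, of which 46 were tested. In the comparisons of treatments with vehicle 0 of 46 passed the threshold, and the list's medians were -0.05, -0.02, -0.03 and -0.01 after CAT-SKL, ADDL, CAT-SKL+ADDL and ADDL+CAT-SKL. The smallest p-values belonged to Pak1, a kinase downstream of Rac (-0.25 ± 0.06 after CAT-SKL), to Cdk5, a kinase in semaphorin signalling (-0.33 ± 0.06 after ADDL), to Dpysl3, a collapsin response mediator (-0.66 ± 0.13 after CAT-SKL+ADDL), and to Chn1, a Rac regulator downstream of Epha4 (0.33 ± 0.06 after ADDL+CAT-SKL; SE). Their limma adjusted p-values were 0.0601, 0.0723, 0.201 and 0.0579.

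Of 40 further guidance cues and receptors outside the listed families, 33 were tested. After CAT-SKL 1 of the 33 passed, close to the 2.62% of all genes, and after ADDL+CAT-SKL another 1 passed, where 0.454% of all genes did. Rgma, a repulsive cue that binds neogenin, measured 0.46 and 0.21 after CAT-SKL and rose by 0.34 ± 0.07 (SE, n = 2; limma adjusted p = 0.0490). Rtn4, the myelin-associated growth inhibitor Nogo, measured 0.50 and 0.45 after ADDL+CAT-SKL and rose by 0.47 ± 0.06 (SE, n = 2; limma adjusted p = 0.0446). Both were above vehicle on all 8 arrays, where a gene-specific dye effect cannot be told apart from a treatment effect. On the log ratios the authors deposited no gene passed the threshold in these comparisons, so both calls were lost there.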

How the data were processed

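Gene expression was measured on 8 Agilent two-colour arrays of 1 slide. The deposited scanner files hold median spot intensity and local background intensity per channel, and a log10 ratio of red over green made with Agilent Feature Extraction 11.5 (per the submitters' processing notes). A deposited table of the series repeats those log10 ratios to within 0.00500. Other deposited columns used are the spot flags, 0 or 1. No spot was saturated, and 71.5% to 81.0% of probes were well above background per channel.

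Intensities were background-corrected (normexp, offset 50) and loess-normalised within arrays with limma 3.58.1 in R 4.3.3. The offset, added to both channels, shrinks log ratios, most for dim spots. Control spots had weight 0, and flagged outlier spots were left out. Replicate spots were averaged per probe. Testing required a signal well above background, in 1 of the channels or both, on 2 or more arrays (25363 probes; 67 more lacked a value), and the brightest tested probe stood for its gene. Accessions were named through RefSeq's gene table of GRCr8. lmFit and eBayes were fitted to 7 samples (3 residual and 5.05 prior degrees of freedom), with Benjamini-Hochberg adjustment over 22459 genes and accessions. The pipeline was tested on simulated data. Genes are named if called, among the 5 highest or lowest with 1 sign on both arrays, of smallest p in their family, dim, or with discordant probes. Of other lists, called genes or those of smallest p are named. Members and lists were chosen with earlier results of these data known. Alternatives varied the normalisation, filter, probe rule, sample count, replicate block and arrays left out.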

Additional observations from a re-analysis of the deposited data

How the results depend on the processing

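All calls lie close to the threshold, and no called log2 change turned its sign under any alternative run. With the 2 CAT-SKL+ADDL arrays as separate samples (8 in the fit), the members called numbered 11 after CAT-SKL (2 higher, 9 lower), 4 after ADDL, 15 after CAT-SKL+ADDL (4 higher, 11 lower) and 3 after ADDL+CAT-SKL, against 8.1%, 4.34%, 10.3% and 3.94% of all genes. Between CAT-SKL, ADDL and ADDL+CAT-SKL, replicate numbers showed no sign of pairing (correlations of deviations -0.202 to 0.0784). CAT-SKL+ADDL could not show pairing, since its arrays differed by no more than spot noise. A replicate block in the fit of 8 samples gave 11, 4 and 14 calls after CAT-SKL, ADDL and CAT-SKL+ADDL, and 1 after ADDL+CAT-SKL, against 6.31%, 3.05%, 9.06% and 2.38% of all genes. Centring arrays on their median in place of loess gave 8 calls after CAT-SKL (2 higher, 6 lower, where loess gave 0 and 6) and 1 after ADDL, against 8.09% and 1.91%. The lower genes were not all the same, since Sema3b and Sema6c lost their calls under this centring. The deposited log ratios gave 0 after CAT-SKL and 0 after ADDL+CAT-SKL, and so did the unfiltered probes for ADDL+CAT-SKL (0), with 1 after CAT-SKL (1.02% of all genes). Averaging a gene's probes gave 3 after CAT-SKL (2.23%). Leaving out 1 array gave 0 to 6 calls after CAT-SKL, 0 to 1 after ADDL (1 without either CAT-SKL array), 0 after CAT-SKL+ADDL and 0 to 1 after ADDL+CAT-SKL. The comparisons between treatments gave 0 under each alternative run. The cause of these shifts was not tested. The alternative of mean spot signals was not run, since the files used here hold medians.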
